A study of Homo sapiens with 3 samples.

Results

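ZFPM1 encodes FOG1, a zinc finger protein that binds the amino-terminal finger of GATA factors and brings the NuRD repressor complex and CtBP proteins to them. With GATA1 it is required for the maturation of red cells and megakaryocytes, the lineages whose features HEL cells carry. HEL cells are an established human line grown from an erythroleukaemia, and they carry the JAK2-V617F mutation. YBX1, also called YB-1, binds nucleic acids through its cold-shock domain and acts on transcription and on the splicing and translation of RNA.

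The ZFPM1 locus was taken as every row of the deposited YBX1 peak lists whose gene field names ZFPM1. There were 28 such peaks of 22874 in replicate 1 and 34 of 17285 in replicate 2. The locus was selected on the peak calls themselves, with its many shared peaks already known, so the number and strength of its peaks are given as a description. The series held 3 libraries of untreated HEL cells that share the JAK2-V617F genotype: YBX1 immunoprecipitations 1 and 2, made from formaldehyde-fixed, sheared chromatin with an antibody against YBX1, and 1 input library without immunoprecipitation. Nothing in the labels tells whether separate cultures were used, so a p-value here compares 2 libraries whose spread may be technical. Replicate 1 held 10010819 tags after removal of duplicates, replicate 2 held 9926271, and the input, which served as the control for both peak lists, held 74780414. The alignment named in the header of the replicate 2 list carries the number 3, and the label was followed.

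The peaks formed a sparse pattern with a dense end. Peaks separated by at most 500 bp were chained into a site, which gave 6 sites over 126 kb of chromosome 16 (hg19, 88461616 to 88587547). Sites 1 to 4 lay between genes and were annotated with ZFPM1, ZNF469 (a zinc finger gene) and the microRNA gene MIR5189 together. Sites 5 and 6 lay in introns of ZFPM1 (transcript NM_153813), and for these ZFPM1 was the only gene named. In the RefSeq gene table of GRCh38, used here for gene order only, ZNF469 precedes ZFPM1 and MIR5189 lies inside it. The link of the intergenic sites to ZFPM1 is thus the authors' annotation and not a measured contact.

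Introns held 18 of the 28 peaks of replicate 1 (64.3%) and 23 of the 34 of replicate 2 (67.6%). Over whole lists introns held 36.9% and 36.4% of all peaks, and 46.9% and 48.9% of peaks on TGGA or TCCA repeats. Site 6 alone held 16 of the 18 and all 23 intronic peaks, so these shares mostly count pieces of 1 site. No ZFPM1 peak was annotated to its promoter or to an exon in either list. Promoters held only 3.28% and 3.42% of all peaks and exons 0.901% and 0.874%, so counts of 0 among 28 and 34 peaks are near the background. Position and repeat label are separate fields of the annotation.

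The sequence that most of these peaks shared was a tandem repeat of the unit TGGA, read on the forward strand, along which ZFPM1 is also transcribed according to RefSeq. TGGA was the label of 20 of 28 peaks in replicate 1 (71.4%, 95% Wilson interval 52.9% to 84.7%) and of 30 of 34 in replicate 2 (88.2%, 73.4% to 95.3%). Over whole lists, TGGA or its reverse complement TCCA labelled 20.0% and 21.6% of peaks, and over chromosome 16 they labelled 40.2% and 41.4%. Peaks of an array share their sequence and are not independent, so these intervals cover counting error only. The related unit TGGG labelled 2 peaks in replicate 1 and 1 in replicate 2, and TAGA labelled 1 peak in replicate 2 alone. In all, 22 of 28 (78.6%) and 32 of 34 (94.1%) ZFPM1 peaks carried a tandem repeat label. The background was 51.2% and 58.9% over all peaks and 69.1% and 76.2% over peaks of chromosome 16. The replicate 1 share was thus nearer to that of its chromosome than to that of the whole list.

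The unit ran in the same direction everywhere at the locus. TCCA labelled 0 ZFPM1 peaks in either replicate, and all 4 sites with such repeats (sites 1, 3, 4 and 6) read TGGA. Uniform direction inside a site was general: of 524 sites in the genome with at least 5 peaks labelled TGGA or TCCA, 524 had a single direction, 273 of them TGGA and 251 TCCA. The deposited lists carry the repeat unit and not the sequence of each tract, so the tracts themselves are not printed.

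The ZFPM1 promoter is shown to set its letters beside the repeat unit of the peaks. The sequence is the 250 bases before the RefSeq start, from GRCh38.p14, chr16:88453030-88453279, plus strand, with each TGGG in capitals; these coordinates are not on the build of the peaks.
ZFPM1 promoter: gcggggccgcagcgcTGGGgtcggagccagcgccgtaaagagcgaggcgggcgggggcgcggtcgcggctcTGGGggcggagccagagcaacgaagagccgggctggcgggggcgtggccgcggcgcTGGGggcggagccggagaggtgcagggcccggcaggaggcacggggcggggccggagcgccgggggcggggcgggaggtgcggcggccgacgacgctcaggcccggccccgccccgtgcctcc
TGGA was not found in this window on either strand, whereas 86.3% of 35116 RefSeq promoter windows of the same length held it. The 8-base double unit of TGGA was held by 0.869% of those windows and not by this one. TGGG occurred 3 times on the given strand and 0 times on the other, and 93.8% of windows held it. The Y-box core ATTGG, the element after which YBX1 was named, was absent here on both strands and present in 32.0% of windows. TGGA, TGGG and ATTGG were searched on both strands, and TGGA and TGGG share their first 3 letters. The window was 83.2% G and C, against a median of 58.0% over all windows. A match or its absence describes the letters of this window only.

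**Figure D1:**
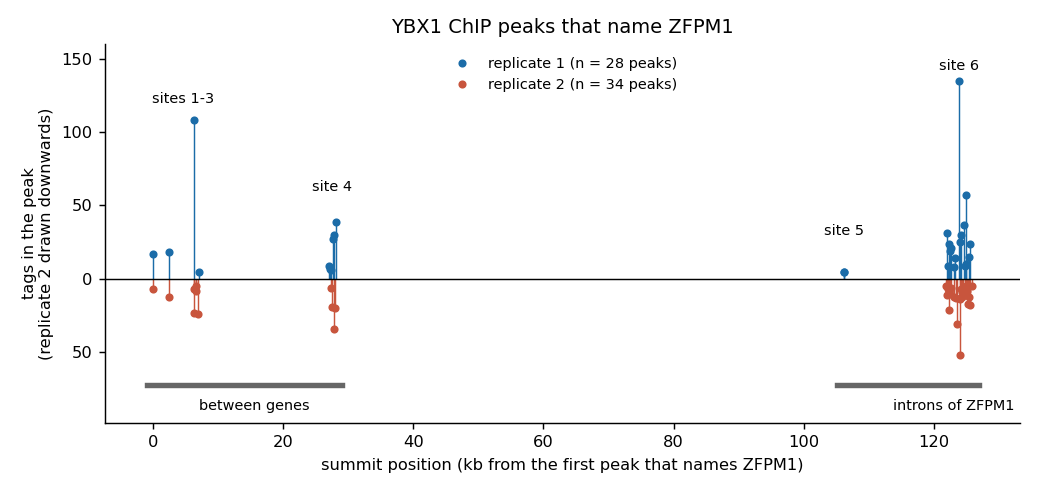
Each point is 1 peak that names ZFPM1, placed by its summit in kb from the first such peak (x axis) and by its tags (y axis), with replicate 1 (n = 28 peaks) drawn upwards and replicate 2 (n = 34 peaks) downwards. Peaks fall into 6 sites, with 77.9 kb free of peaks between site 4 and site 5, and the tallest points are the 108-tag peak of site 3 and the 135-tag peak of site 6, both in replicate 1.

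The sites were unevenly spaced. Gaps of 2.29 kb and 3.71 kb separated sites 1, 2 and 3, a gap of 20.0 kb led to site 4, one of 77.9 kb to site 5 and one of 15.6 kb to site 6. Outside the locus, the nearest peak before site 1 lay 96.1 kb away on a tandem repeat without a named gene (88364926 to 88365483, 79 tags in replicate 1 and 51 in replicate 2). The nearest peak after site 6 lay 277.0 kb away on a HAL1-2a_MD element, a LINE (88864600 to 88864677, 9 and 6 tags). Neither list had a peak in these stretches. Stretches without shared peaks were common: 703 of 903 windows of 100 kb on chromosome 16 held no peaks found in both replicates.

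Site 6, the intronic array, held most of the signal. It ran over 4139 bp (88583409 to 88587547) and held 16 peaks with 468 tags in replicate 1 and 23 peaks with 297 tags in replicate 2, which were 62.9% and 64.3% of all tags in ZFPM1 peaks. Of these peaks, 13 and 21 were labelled TGGA and 1 in each replicate TGGG. The others were labelled with an AluY element (21 tags, replicate 1), a MIR3 element (5 tags, replicate 2) and intron 4 of 9 (9 tags, replicate 1); AluY and MIR3 are SINEs. That last peak is the single one in the array whose label gives the intron number.

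**Figure D2:**
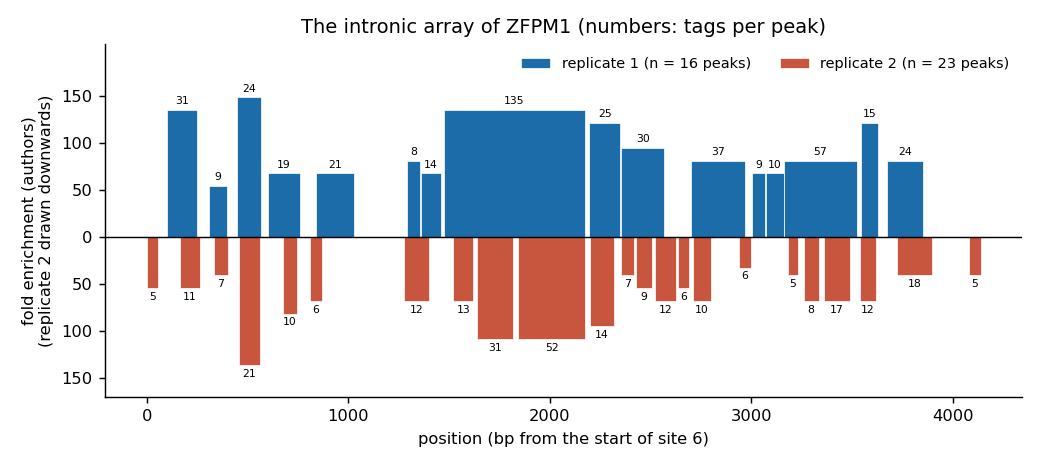
Bars show the peaks of site 6, with position in bp from its start on the x axis, the authors' fold enrichment as height, the peak width as bar width and the tags as numbers, replicate 1 (n = 16 peaks) upwards and replicate 2 (n = 23 peaks) downwards. The widest replicate 1 bar, with 135 tags, stands over 3 replicate 2 bars of 13, 31 and 52 tags.

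Peaks of the array followed each other closely. Neighbouring summits were a median of 212 bp apart in replicate 1 (80 to 647 bp, 15 steps) and 147 bp apart in replicate 2 (65 to 518 bp, 22 steps). The gaps between neighbouring peaks had medians of 33 bp and 53 bp, the shortest being 1 bp and 6 bp and the longest 262 bp and 411 bp. Peaks covered 72% of the array in replicate 1 and 56% in replicate 2, and 1933 bp were covered in both. That is 64.8% of the replicate 1 cover and 83.4% of the replicate 2 cover. Replicate 1 alone covered 1048 bp, replicate 2 alone 384 bp, and 774 bp of the array lay in no peak.

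The array was split more finely in replicate 2. The median peak width in it was 152 bp in replicate 1 and 82 bp in replicate 2. The caller worked with a fragment length (d in the file header) of 20 bp, shorter than the 36 bp tag. Peak widths and gaps thus do not measure the extent of binding. The widest replicate 1 peak of the array (88584884 to 88585581, 698 bp, 135 tags) corresponded to 3 replicate 2 peaks with 13, 31 and 52 tags, or 96 in all. In the same way the replicate 1 peak from 88586572 to 88586933 with 57 tags faced 3 replicate 2 peaks with 5, 8 and 17 tags.

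Among the other sites, site 3 and site 4 were arrays of the same kind. Site 3 spanned 836 bp (88467833 to 88468668), with 2 peaks of 108 and 5 tags in replicate 1 and 5 peaks of 7, 23, 5, 8 and 24 tags in replicate 2. Site 4 spanned 1142 bp (88488648 to 88489789), with 6 peaks of 9, 7, 6, 27, 30 and 39 tags in replicate 1 and 4 peaks of 6, 19, 34 and 20 tags in replicate 2. Both had most of their tags in a few wide peaks, which in site 4 were the last 3 of each replicate.

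Sites 1 and 2 were single peaks. Site 1 (88461616 to 88461719) had 17 tags in replicate 1 and 7 in replicate 2 and was labelled TGGA in both. Site 2 (88464014 to 88464118) had 18 and 12 tags; its replicate 1 peak had no repeat label and its replicate 2 peak was labelled TAGA, although the summits were 5 bp apart. Site 5 (88567695 to 88567852, intron 3 of 9) had 2 peaks of 5 tags each in replicate 1, neither on a labelled repeat, and no peak in replicate 2. Since the lists begin at 5 tags, site 5 was at the limit of what replicate 1 could show, and its absence from replicate 2 was not detectable as a difference at this depth.

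Per length of peak, the locus was not denser in tags than the lists as a whole. ZFPM1 peaks held 153 tags per kb covered in replicate 1 (744 tags over 4875 bp) and 132 in replicate 2 (462 tags over 3508 bp). All peaks held 171 and 160 tags per kb, and all TGGA or TCCA peaks 165 and 148. Single ZFPM1 peaks held more tags than the typical peak: the lowest, median and highest were 5, 18.5 and 135 in replicate 1 and 5, 10.5 and 52 in replicate 2. The medians over all peaks were 9 and 8, and over TGGA and TCCA peaks 10 and 9. ZFPM1 peaks had median widths of 111 bp and 82.5 bp, against 70 bp and 69 bp over all peaks and 81 bp and 75 bp over TGGA and TCCA peaks. In replicate 2 the locus was thus close to its repeat class in both measures. These are descriptions of called peaks and were not tested.

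The authors' fold enrichment, which divides the tags at a peak's summit by the background level there, ran from 40.5 through a median of 75.6 to 148 in replicate 1 and from 32.8 through 68.0 to 136 in replicate 2. Where the input lies at or below the genome-wide level, this fold can take only whole multiples of 13.5 in replicate 1 and 13.6 in replicate 2. That was so for 27 of 28 and 31 of 34 ZFPM1 peaks (within 0.006), against 38.9% and 37.4% of all peaks and 77.2% and 72.1% of peaks on chromosome 16. For these peaks the fold thus counts tags at the summit, 3 to 11 such steps in replicate 1 and 3 to 10 in replicate 2, and does not use the local input. The exceptions were 1 place of site 4 in both replicates, with folds of 70.2 and 74.5, and 1 peak each of site 3 (56.8) and site 6 (32.8) in replicate 2. Neighbouring peaks lie on much the same local input, and site 6 alone gave 16 of the 28 and 23 of the 34 peaks. The shares of ZFPM1 thus rest on few separate sites.

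The replicates were compared next. Of the ZFPM1 peaks of replicate 1, 22 of 28 (78.6%, 95% Wilson interval 60.5% to 89.8%) overlapped a replicate 2 peak by at least 1 bp, beside 54.0% of all replicate 1 peaks. Of those of replicate 2, 31 of 34 (91.2%, 77.0% to 97.0%) overlapped a replicate 1 peak, beside 77.6% of all replicate 2 peaks. TGGA and TCCA peaks over the genome were found in the other replicate in 63.0% and 89.9% of cases. The replicate 2 share of ZFPM1 was near that of its repeat class, and its replicate 1 share was higher. The locus was selected with its many shared peaks already known, so these shares are descriptions and were not tested. Both lists use the same input and are not independent. Peaks of an array are not independent of each other either, so these intervals cover counting error only. Each replicate 2 piece of a wide replicate 1 peak also counts as shared, so the share depends on how a list divides an array.

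Merging overlapping peaks of both lists gave 28 places, of which 19 were found in both replicates, 6 in replicate 1 alone and 3 in replicate 2 alone. Of the 19, 13 lay in the intronic array and 6 between genes. The 9 places of a single replicate were weak, with 5 to 10 tags. Those of replicate 1 alone were 2 in site 4 (9 and 6 tags), both of site 5 and 2 in the array (9 and 10 tags). Those of replicate 2 alone were all in the array, with 5, 6 and 5 tags, and included its first and its last peak.

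By the lower of both folds, the strongest place was the third of the array found in both replicates (88583857 to 88583974, TGGA), with fold enrichments of 148 and 136 on 24 and 21 tags. The last place of site 4 followed (88489600 to 88489789) with folds of 148 and 122 on 39 and 20 tags. The wide middle place of the array (88584884 to 88585585) had folds of 135 and 109, and site 2 had folds of 108 and 122. The fold order was thus not the tag order: site 2 with its 18 and 12 tags ranked beside a place with 135 and 96. Site 3 and the array place from 88585604 to 88585758 came next, each with folds of 121 and 95.2; the latter held 25 and 14 tags. The weakest by the lower fold were the TGGG place of the array (88583716 to 88583811, folds of 53.9 and 40.8, 9 and 7 tags) and its last place found in both replicates (88587081 to 88587306, folds of 80.9 and 40.8, 24 and 18 tags). The other 8 array places had, in order along the array and with all tags of a place counted, 31 and 11, 19 and 10, 21 and 6, 22 and 12, 30 and 28, 37 and 16, 57 and 30, and 15 and 12 tags in replicates 1 and 2. Replicate 1 was the higher at each of them, least so where the tags were 30 and 28.

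**Figure D3:**
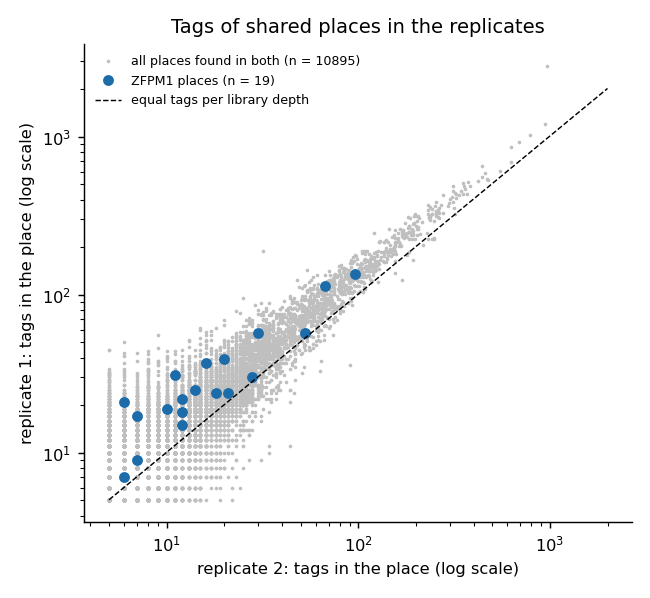
Each point is a place found in both replicates, with all its tags in replicate 2 on the x axis and in replicate 1 on the y axis, both on log scales; blue points are the 19 ZFPM1 places, grey points all 10895, and the dashed line marks equal tags per kept tag. All blue points lie above the line, and most lie inside the grey cloud.

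Tags of the 19 places moved together in the replicates. Over all tags of a place, Pearson's r was 0.91 and Spearman's rho 0.85 on log2 tags, against 0.87 and 0.77 over all 10895 places found in both; for the strongest peak of each place r was 0.76 and rho 0.65. Wide places collect more tags in both libraries, places of an array share their sequence, and the lists share the input, so these values are given without a p. Summits of the strongest peaks were a median of 29 bp apart (0 to 604 bp), compared with 14 bp over all places, and 8 of 19 lay within 20 bp against 63.4% of all. The largest distance was in site 3, where the strongest peaks overlapped but their summits were far apart. Repeat labels were the same in both replicates at 17 places and differed at 2, site 2 and the place labelled AluY in replicate 1 and TGGA in replicate 2.

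Replicate 1 had more tags than replicate 2 at 18 ZFPM1 places by the strongest peak and at every shared place by all tags. The libraries kept similar numbers of tags, but the tags in all peaks were 385885 and 250698, a ratio of 1.54 over whole lists. The median ratio of replicate 1 to replicate 2 was 1.9 for the strongest peak and 1.69 for all tags of a place, compared with 1.33 and 1.31 over all places and 1.5 and 1.42 over TGGA and TCCA places. By site and per kept tag, the ratio was 1.56 for site 6 (exact 95% interval 1.35 to 1.81), 1.67 for site 3 (1.23 to 2.3) and 1.48 for site 4 (1.1 to 2). For site 1 it was 2.41 (0.949 to 6.87) and for site 2 it was 1.49 (0.678 to 3.39), whose intervals include 1. The 3 arrays were near the ratio of the whole lists, and their intervals overlap each other.

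An exact binomial test, two-sided, set the tags of the strongest peak of each replicate against the kept tags, with Benjamini-Hochberg adjustment over all 10895 places. It called 5 of the 19 ZFPM1 places, all higher in replicate 1, where 9.02% of all places were called in that direction and 9.27% in either. The 5 were site 3 (108 and 24 tags, adjusted p = 1.27e-11, exact test) and 4 places of the array. In the array these were the wide middle place (135 and 52 tags, adjusted p = 9.77e-08, exact test), those with 57 and 17 and with 37 and 10 tags, and the first found in both replicates (31 and 11 tags). Of the 5, 4 held more replicate 2 peaks than replicate 1 peaks. With all tags of a place counted, 1 of 19 was called, site 3 (113 and 67 tags, exact test, adjusted p = 0.0226), where 5.07% of all places were called and 4.97% were called higher in replicate 1. With depth taken as the tags in peaks of each list, 2 of 19 were called, both higher in replicate 1, where 3.54% of all places were called and 2.14% in that direction. With all tags, the middle place then had 135 and 96 tags with an adjusted p of 0.142 by the exact test. The test compares these libraries and no condition.

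The number of peaks in the array was high for the series, with site length not taken into account. The locus was selected with its many shared peaks already known, so its ranks here are descriptions of a selected site. Of 14029 sites over the genome made with the same 500 bp rule, 1 had more peaks in both lists together than the 39 of site 6: a site of 40 peaks on chromosome 14 (105325057 to 105328828) near PLD4, AKT1 and other genes. Sites found in both replicates had a median of 3 peaks; 8.07% of all sites had at least the 7 peaks of site 3 and 2.78% at least the 10 of site 4. Next below were TGGA entries of 38 and 34 peaks in ASMTL on Y and in ASMTL-AS1 on X, in the pseudoautosomal part that both chromosomes share. They can be 1 array listed under both chromosomes. Their numbers of peaks and tags depend on how the alignment divided the tags between X and Y, which was not examined. Sites with many peaks differed in length: site 6 spanned 4139 bp and the site of 40 peaks 3772 bp. A site of 31 peaks on chromosome 1 spanned 5640 bp, and one of 26 peaks on chromosome 17 spanned 1840 bp. A high number of peaks is thus not a high number per length. By tags the array was less extreme: with 765 tags in both lists, it was exceeded by 45 sites. No site had more replicate 2 peaks than its 23, a number also reached by the ASMTL site on Y, while 2 sites had more replicate 1 peaks than its 16.

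**Figure D4:**
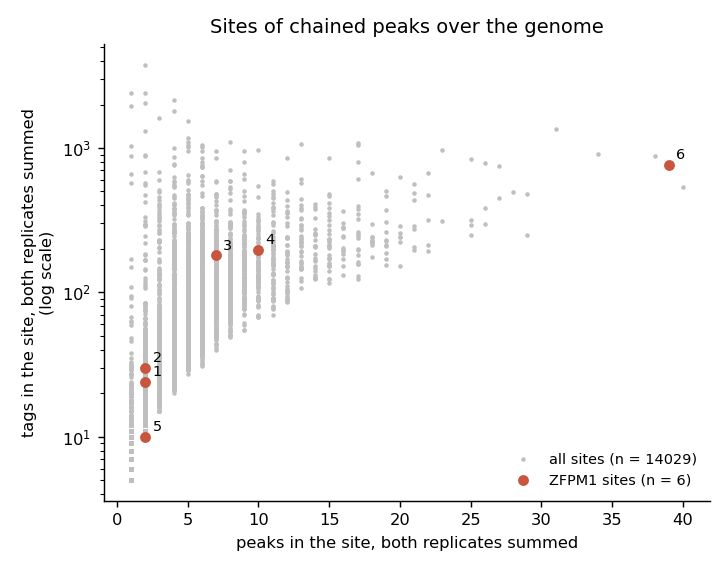
Grey points are all 14029 sites of chained peaks, by peaks (x axis) and tags (y axis, log scale), both lists summed; numbered red points are the 6 ZFPM1 sites. Site 6 lies at 39 peaks and 765 tags, near the right edge; sites 3 and 4 lie at 7 and 10 peaks, and sites 1, 2 and 5 at 2 peaks each.

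Along chromosome 16, the 100 kb window with site 6 held 13 places found in both replicates, the highest number of 903 windows; the next highest was 8. The window before it, with sites 1 to 4, held 6 places and shared the eighth rank. Of the windows, 703 held 0. Counted by sites in place of places, the order changed: the window of site 6 held 1 site and 40 windows held more, whereas that of sites 1 to 4 held 4 sites, a number that 0 windows exceeded and 2 others reached. The height of the first window was thus the subdivision of a single array. Both windows hold peaks known when the locus was selected, so their ranks are descriptions only.

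Genes with a similar pattern were looked for among the 29 genes with at least 10 places found in both replicates inside the gene. Here and below, a place counted as inside when a peak naming the gene was not annotated as intergenic. Whether it lay within the named gene was not checked: MIR5009, a microRNA gene, was counted with 10 places in 4 sites. ZFPM1, selected with its many shared peaks already known, had 13 and was exceeded by 8 genes and equalled by 2. All its places lay in 1 site, which was so for 1 other gene of the 29, CHCHD6 with 10 places; the median was 6 sites. By the cosine of counts per repeat unit, the most like ZFPM1 (11 TGGA or TCCA, 1 TGGG, 1 other) were CHD5 at 0.996, a chromatin remodeller gene with 10 of 11 places on the unit in 3 sites, and ASMTL and ZNF423 at 0.992. ASMTL had 10 of 10 places in 2 sites and ZNF423, a zinc finger transcription factor gene, 10 of 10 in 4 sites. The measure uses the repeat labels of 10 to 13 places a gene and says nothing of function.

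Other genes of the GATA1 and FOG1 network were looked up in the same lists. Of 32 genes in the list, 14 (43.8%) were named by a peak, near the 40.4% of 20056 RefSeq protein-coding genes that were; 12 had a place found in both replicates and 4 had one inside the gene. Among all 10830 genes named in either list, 66.7% had a place found in both and 20.4% had one inside the gene; of the 14 named here these were 85.7% and 28.6%. GATA1 itself, the partner of FOG1, was named by no peak, and neither were TAL1, LDB1 and KLF1, which act with GATA1 in red cells. Of the NuRD subunit genes in the list, MBD3 and GATAD2B were named by peaks of both replicates and HDAC2 by 1 peak of replicate 1. CHD3, CHD4, MTA1, MTA2, MTA3, HDAC1, RBBP4, RBBP7, MBD2 and GATAD2A were named by none, and so were CTBP1 and CTBP2. Most protein-coding genes were likewise unnamed, and a gene without a listed peak is not shown to be free of YBX1.

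The 4 genes with a place inside were ZFPM2, RUNX1, CBFA2T3 and GATAD2B. ZFPM2, which encodes the related cofactor FOG2, had 1 such place, on a MIRb element and not on a tandem repeat (chromosome 8, folds of 117 and 70.3, 28 and 15 tags). RUNX1, a blood transcription factor, had 3, the strongest on TCCA (chromosome 21, 36343763 to 36343856, folds of 89.4 and 77.8). GATAD2B, a NuRD subunit, had 1 on TAGA (chromosome 1, 153788166 to 153788254, folds of 58.4 and 46.0). CBFA2T3, a corepressor that joins GATA1 complexes, lies further along chromosome 16; it was named for 12 places, 1 of them inside the gene on TCCA (89031091 to 89031576, folds of 121 and 136, 64 and 67 tags). Of the genes with shared places outside the gene alone, GATA2 had 3, GATA3 2, GATA4 2, LMO2 3, GFI1B 1, LYL1 1, TCF3 8 and MBD3 3. TCF3 and MBD3 share their strongest one. ZFPM1 had 13 intragenic places, all of them pieces of 1 array. It was selected with its many shared peaks already known, so its larger number follows from the selection and ranks it against none of these genes.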

How the data were processed

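YBX1 ChIP-seq of HEL cells was analysed from 2 deposited peak lists. Per the submitters' processing notes the tools were Bowtie2, Trimmomatic 0.36 and bcl2fastq 02.14.01.07, with peak calling by MACS 1.4 on build hg19. Per the file headers, MACS 1.4.2 called each replicate separately against the same input at a p cutoff of 1e-05, with 1 tag kept per position. The authors then filtered and annotated the lists by a rule not given in the sources used here. Deposited values are tag counts per peak, fold enrichment (the authors' ratio at the summit), a score (the negative log10 of the p-value times 10, read from the values), the false discovery rate as a percent, and width and summit in bp. Precision is limited by tags per peak, from 5 upwards.

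Peaks naming ZFPM1 were merged with overlapping peaks (1 bp) into places and chained within 500 bp into sites, in Python 3.11.15 with pandas 2.3.3 and scipy 1.17.1; overlap and tag tests were tested on simulated data. Tags were tested by an exact binomial test with Benjamini-Hochberg adjustment over all shared places. Members, lists and tests were chosen with earlier results of these data known. The text names the 6 shared places with the highest lower fold, the weakest, the 3 likest genes (at least 10 intragenic places) and network genes with a place inside; genes named beyond that were chosen after their values were seen. No hg19 genome was used; promoter letters are RefSeq's. Alternatives were a score of at least 100 (p of 1e-10), other overlap rules, intergenic rows left out, other tag sums and each replicate alone.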

Additional observations from a re-analysis of the deposited data

How the results depend on the processing

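Of 27 alternative values, 19 stayed within the spread allowed (1.5 times for a count, the Wilson interval for a share) and 8 moved. Leaving out intergenic peaks left 18 replicate 1 peaks. Chaining peaks within 500 bp turned 28 places into 6, and counting peaks within 200 bp as shared turned 19 places found in both into 6 and the shares into 92.9% and 97.1%, because arrays then merge by construction. At a score of at least 100, 100.0% of the replicate 2 peaks were shared. The tag test called 1 place with all tags of a place and 2 with depth taken as tags in peaks. A single replicate gave 28 to 34 places. No paired analysis was possible because the immunoprecipitations form a single group and the input carries no matching number. Depth limits the weakest places, which rest on 5 tags, and site 5 rests on replicate 1 alone.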
